A study of Mus musculus with 2 samples.

Results

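The muscle contraction apparatus was examined here in the YY1 binding map of mouse muscle stem cells (MuSCs). The group held 41 genes, listed by name, of the 21938 protein-coding genes on the chromosomes with peaks, and they fell into 16 thick filament genes, 13 thin filament genes, 7 genes of the Z-disc, titin, desmin and creatine kinase, and 5 genes of excitation-contraction coupling and calcium handling. The data were the 4681 peaks of 1 YY1 ChIP-seq library (chromatin immunoprecipitation followed by sequencing) called against 1 background library, which the labels name input and the study's methods name IgG and which was not analysed on its own here. The cells were MuSCs mixed from several Ctrl mdx mice, which carry Pax7CreERT2, R26YFP and intact Yy1 (Yy1+/+) on the dystrophin-deficient mdx background, so that the Cre recombinase and the label depend on Pax7, the transcription factor that marks MuSCs. The labels describe cultured wild-type MuSCs, whereas the study describes freshly isolated cells of mdx mice, and the 2 accounts cannot be told apart from a peak list. A peak list holds no expression, so the cell type could not be checked against its markers. With 1 library there is no replicate, no spread between mice and no p-value between genes, and every interval below covers counting error only.

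YY1 is a zinc-finger protein that binds DNA around the core motif ATGGC, most often at promoters of broadly active genes, and that can activate or repress. The sarcomere is the contractile unit of the muscle fibre: myosin in the thick filaments pulls on actin in the thin filaments, the Z-disc anchors the thin filaments, and calcium released from the sarcoplasmic reticulum switches contraction on through troponin. MuSCs do not contract, and most sarcomere genes are activated only when their progeny differentiate. In myoblasts, YY1 is known to occupy silent muscle promoters such as those of Ckm and Myh4 together with the Polycomb enzyme Ezh2, and to compete with the serum response factor SRF for the skeletal actin (Acta1) promoter.

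A gene was called bound when the summit of a YY1 peak, its highest point, lay within 1000 bp of any of its transcript starts in GENCODE M21 basic (mm10). By this measure 3 of the 41 genes were bound, the fast myosin regulatory light chain Mylpf, the fast Z-disc protein Actn3 and the calcium pump Atp2a2. That is 7.32% of the group, against 4119 genes or 18.8% of all protein-coding genes. The remaining 38 had no summit within 1000 bp of a start, and the closest of them, Tnnc2, was 6403 bp away. There were therefore no members near the 1000 bp limit on either side, the 3 bound genes having their summits 2, 217 and 324 bp from a start. Widening the window to 2000 or 5000 bp on either side added no member, although the share over all protein-coding genes rose to 19.3% and 20.4%.

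**Figure D1:**
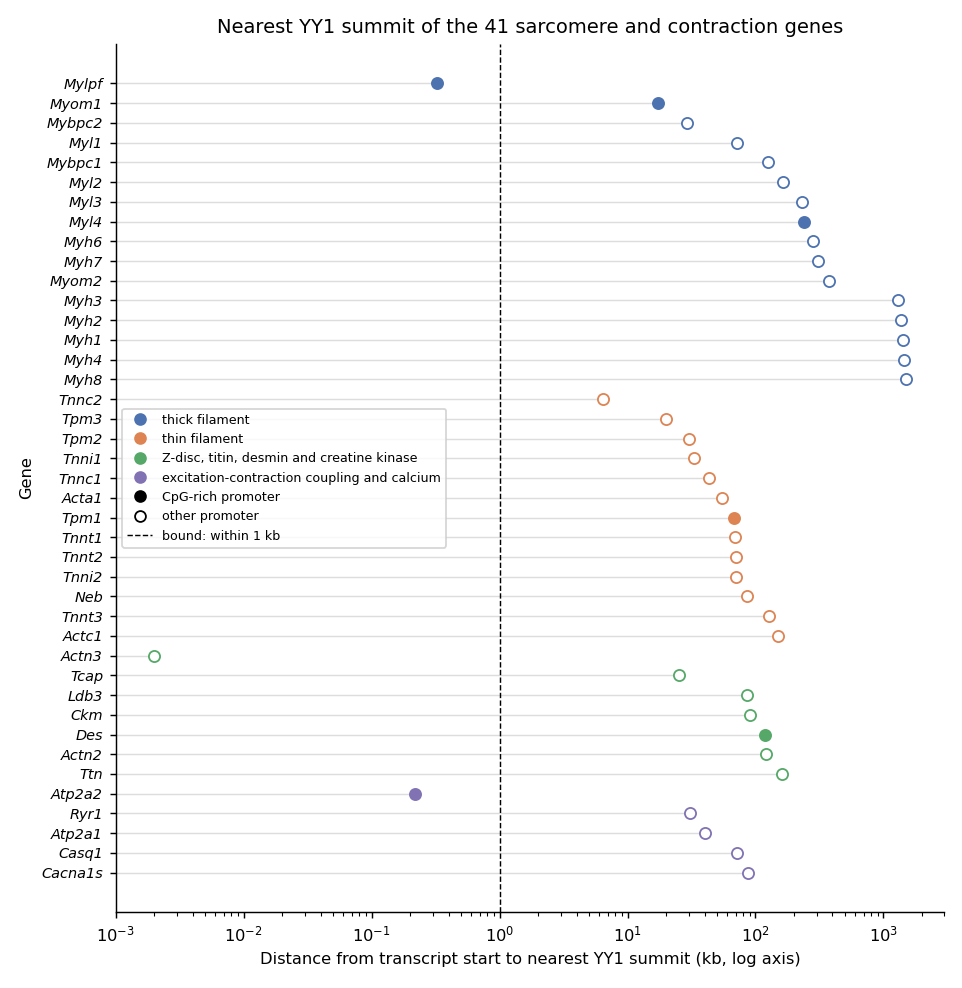
Distance in kb, on a log axis, from the nearest transcript start of each of the 41 genes to the nearest YY1 summit, coloured by role, filled for CpG-rich promoters and open for other promoters, with the dashed line at 1 kb. Mylpf, Actn3 and Atp2a2 lie to the left of the line, Tnnc2 follows at 6.40 kb, and 5 of the Myh genes lie at 1290 kb or more.

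The peaks at the 3 bound genes are shown by the bases around each summit, on the strand of the gene and in build GRCm38 (mm10). These are the only stretches of promoter DNA at basic starts of the group that YY1 peaks marked. The Mylpf stretch is chr7:127208475-127208675 on the plus strand, the Atp2a2 stretch is chr5:122502342-122502542 on the minus strand, and the Actn3 stretch is chr19:4877880-4878007 on the minus strand, ending 30 bases into its first exon. No base is in capitals, since neither AANATGGC nor its core ATGGC occurred on either strand.
Mylpf: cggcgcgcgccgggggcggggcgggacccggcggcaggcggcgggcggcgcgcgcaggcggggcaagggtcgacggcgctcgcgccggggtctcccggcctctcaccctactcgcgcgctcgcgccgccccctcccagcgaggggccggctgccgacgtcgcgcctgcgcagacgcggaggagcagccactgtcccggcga
Atp2a2: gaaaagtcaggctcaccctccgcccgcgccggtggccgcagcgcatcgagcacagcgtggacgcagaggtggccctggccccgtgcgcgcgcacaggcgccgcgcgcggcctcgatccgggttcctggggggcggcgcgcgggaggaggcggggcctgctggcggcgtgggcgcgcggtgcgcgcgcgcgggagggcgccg
Actn3: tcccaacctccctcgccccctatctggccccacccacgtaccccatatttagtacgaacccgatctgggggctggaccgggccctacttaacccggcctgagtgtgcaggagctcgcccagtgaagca
AANATGGC was absent from the whole of each of the 3 peaks too. Across all 4681 peaks, 6.62% had AANATGGC within 100 bp of the summit, 13.0% had it anywhere in the peak and 29.9% had ATGGC within 100 bp, so its absence from 3 peaks is what most peaks show.

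Mylpf, the regulatory light chain of fast skeletal myosin, had the strongest peak of the 3. Its peak at chr7:127208272-127208711 had a fold enrichment of 6.56, from 25 fragments at the summit (95% Poisson interval 16.2 to 36.9) over a local background of 2.96, with a q-value of 1.65e-11. In fold enrichment it ranked 751 of the 4681 peaks. The summit lay 324 bp upstream of the distal of the 2 Mylpf starts, at 127208899, and 107 bp from the start of Tbc1d10b, a GTPase-activating protein gene that is transcribed in the opposite direction. The other Mylpf start, at 127211608, was 3033 bp from the summit and had no peak of its own. The 2 starts differed in base composition, with an observed/expected CpG of 0.838 and a GC content of 58.4% at the distal start, against 0.0815 and 49.9% at the other. When each summit was assigned only to the gene with the nearest start, it went to Tbc1d10b, and 2 members were left.

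Atp2a2 encodes SERCA2, the calcium pump of slow muscle and heart, which is also made in many other cell types. Its peak at chr5:122502074-122502686 had a fold enrichment of 4.52, from 16 fragments (9.15 to 26.0) over a background of 2.76, with a q-value of 4.67e-05. The summit was 217 bp upstream of the start at 122502225 and 547 bp from the second start, and no other gene started within 1000 bp of it. This was the most CpG-rich promoter of the group, with an observed/expected CpG of 1.03 and a GC content of 77.5%. AANATGGC occurred once within 1000 bp of the Atp2a2 starts, outside the peak.

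Actn3, alpha-actinin-3, crosslinks actin at the Z-disc of fast fibres. Its peak at chr19:4877850-4878197 was the weakest of the 3, with a fold enrichment of 3.84, 11 fragments (5.49 to 19.7) over a background of 2.12, and a q-value of 0.00641. The summit was 2 bp downstream of the single annotated start, at 4877909, inside the first exon. The start of Zdhhc24, a palmitoyltransferase gene, lay 765 bp from it. The Actn3 promoter was not CpG-rich, with an observed/expected CpG of 0.370. The intervals of the 3 fragment counts overlap one another, and the difference between the counts was not tested. The median fold enrichment of all peaks within 1000 bp of a start was 5.13, with quartiles of 4.34 and 6.05, so that Mylpf was above the upper quartile, Atp2a2 lay between the quartiles and Actn3 was below the lower one.

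**Figure D2:**
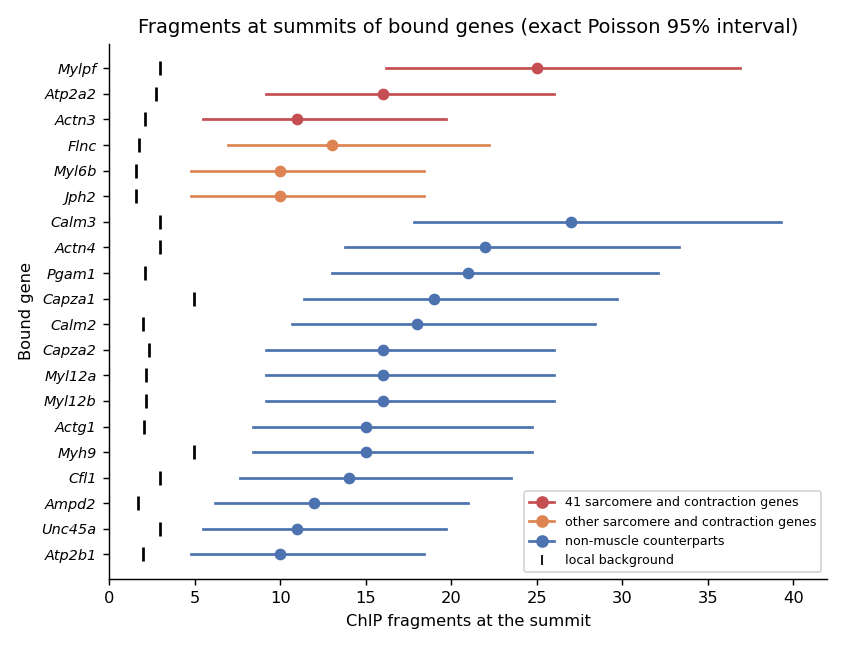
ChIP fragments at the summit (points, with exact Poisson 95% intervals) and the local background (vertical ticks) for bound genes of the group, of the list of other contraction genes and of their non-muscle counterparts. Mylpf has 25 fragments, Atp2a2 16 and Actn3 11. All intervals lie above the background ticks, which follows from the peak calling, since peaks were called for exceeding the local background.

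YY1 binding across the genome went with CpG-rich promoters, and the contraction genes have few of them. A promoter was called CpG-rich when the 500 bp on either side of the gene-level start had an observed/expected CpG of at least 0.6 and a GC content of at least 50%. Only 6 of the 41 genes passed, or 14.6%, against 44.4% of all protein-coding genes: Mylpf, Myl4, Myom1, Tpm1, Des and Atp2a2. The median observed/expected CpG was 0.254 in the group and 0.552 over all protein-coding genes, while the median GC content was 54.1% and 54.7%. Contraction gene promoters thus had ordinary GC content but little CpG.

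The share of bound genes was then counted within each promoter class, with the class taken from the gene-level start and the call from any basic start. Of the CpG-rich genes, 2 of 6 were bound (33.3%), against 36.4% of such genes among all protein-coding genes. Of the others, 1 of 35 was bound (2.86%), against 4.68%. When the call was made at the gene-level start too, an alternative chosen after seeing the data, Myom1 joined the bound genes, giving 3 of 6 CpG-rich genes (50%, against 36.1%) and 1 of 35 others (2.86%, against 2.47%). Both shares thus changed sides of the background with 1 gene or 1 choice of start, and neither is a result about the contraction genes. The CpG-rich members with no summit within 1000 bp of the gene-level start or of a basic start were Myl4, Tpm1 and Des. The median distance to a summit was 86.0 kb for the 35 members that were not CpG-rich, against 179 kb for all protein-coding genes that were not.

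**Figure D3:**
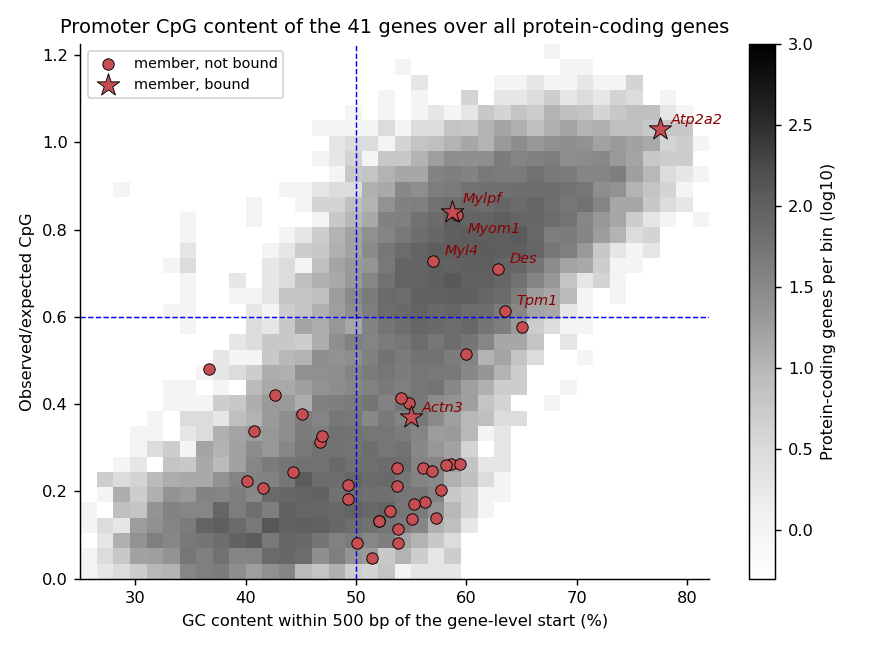
Observed/expected CpG against GC content within 500 bp of the gene-level start, for the 41 genes (red, with stars for bound genes) over the density of all protein-coding genes (grey, log10 of genes per bin), with dashed lines at 0.6 and 50%. Most of the group lies below the horizontal line, and 2 of the 3 stars, Mylpf and Atp2a2, lie above it.

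The thick filament genes encode the myosin heavy and light chains and the proteins that hold the myosin rods in register. Of these 16 genes 1, Mylpf, was bound (6.25%), against 18.8% of all protein-coding genes. By promoter class, 1 of the 3 CpG-rich genes was bound (33.3%, against 36.4%) and 0 of the other 13 (against 4.68%). The median distance of the 16 to a summit was 259 kb, against 93.7 kb over all protein-coding genes. The 5 heavy chain genes of chromosome 11 lay farthest from any peak. Embryonic Myh3 was 1290 kb from the nearest summit, fast Myh2 1383 kb, fast Myh1 1412 kb, fast Myh4 1450 kb and perinatal Myh8 1489 kb, all with the same nearest summit at the promoter of the kinase gene Map2k4. These 5 genes sit in 1 cluster with Myh13 that spans 293 kb of chromosome 11. The stretch without a summit around them ran from 65788215 to 68853181, or 3.06 Mb, and held the gene-level starts of 29 protein-coding genes, 9 of them CpG-rich. Of the 4660 gaps between neighbouring summits, 169 (3.63%) were longer and the median was 146 kb, and 10.4% of all protein-coding genes, like these 5, were over 1 Mb from a summit.

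The cardiac and slow heavy chains Myh6 and Myh7, which are neighbours on chromosome 14, were 280 and 308 kb from the nearest summit, at the splicing factor gene Acin1. Among the light chain genes without a peak, fast Myl1 was 72.1 kb from a summit at the mitochondrial dehydrogenase gene Acadl, slow Myl2 163 kb, slow Myl3 230 kb and atrial or embryonic Myl4 238 kb. The myosin-binding protein genes Mybpc2 and Mybpc1 were 29.3 and 126 kb from a summit, the first at the nuclear receptor gene Nr1h2. Myom2, an M-band protein of fast fibres, was 377 kb away, and the nearest summit was at no annotated start.

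Myom1, the M-band protein myomesin, was the one gene whose call turned on the annotation. The 2 starts of the basic set were 17.3 and 17.4 kb from the nearest summit. The gene-level start, at 71002633 on chromosome 17, lay 447 bp from that summit. The summit was also 19 bp from the start of 1 of the 2 gene records of Myl12b and 368 bp from a start of Myl12a. Both encode non-muscle regulatory light chains. This peak had a fold enrichment of 5.41 and 16 fragments over a background of 2.14. With the gene-level start or with the comprehensive annotation, 4 members were bound, Myom1 being the fourth. The CpG-rich class of Myom1 also belongs to the upstream start (observed/expected CpG of 0.834), since the 2 basic starts had 0.344 and 0.352.

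None of the 13 thin filament genes was bound, and their median distance was 68.3 kb, against 93.7 kb over all protein-coding genes. Since 12 of the 13 were not CpG-rich at the gene-level start, the class in which 4.68% of all protein-coding genes were bound, a count of 0 is near the background. Of these 12, Tpm3 was CpG-rich at downstream starts (observed/expected CpG of 0.698 to 0.765), which were 26.9 kb or more from a summit. Tnnc2, the calcium-binding troponin of fast fibres, was the nearest at 6.40 kb, and that summit lay 127 bp from the start of Snx21, a sorting nexin gene. The tropomyosin genes Tpm3, Tpm2 and Tpm1, whose products lie along actin, were 20.0, 30.4 and 68.3 kb from a summit. Tpm1 had 16 distinct starts, each with an observed/expected CpG of at least 0.614, and each of them was at least 68.3 kb from the nearest summit, at the promoter of Lactb. The slow troponins Tnni1, Tnnc1 and Tnnt1 were 33.0, 43.1 and 68.7 kb away, cardiac Tnnt2 69.9 kb, and the fast Tnni2 and Tnnt3 70.4 and 127 kb. Tnni1 and Tnnt2 are neighbours and shared a nearest summit at Phlda3, as Tnni2 and Tnnt3 did at Ifitm10. The summit nearest to Tnnc1, at the promoter of the deubiquitinase gene Bap1, was strong, with a fold enrichment of 11.0 and 27 fragments. Neb, nebulin, the ruler of the thin filament, was 86.0 kb away. Skeletal actin Acta1 was 54.6 kb and cardiac actin Actc1 149 kb from a summit, the first at Nup133, a nuclear pore gene.

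Among the 7 genes of the Z-disc, titin, desmin and creatine kinase, Actn3 was bound (14.3%) and the other 6 were 25.2 to 162 kb from a summit. Tcap, which caps titin at the Z-disc, was nearest at 25.2 kb, with its summit at Stard3. Ldb3, another Z-disc protein, was 85.6 kb away, the muscle creatine kinase gene Ckm 90.9 kb, desmin (Des) 119 kb, Actn2 121 kb and titin (Ttn) 162 kb. The value of Ttn was measured from an internal start, and its RefSeq start was 298 kb from the nearest summit. The summit nearest to Ckm lay at no annotated start and was weak, with a fold enrichment of 3.78 and a q-value of 0.012. Of the 5 genes of excitation-contraction coupling and calcium handling, Atp2a2 was bound (20.0%, against the 18.8% of all protein-coding genes). The calcium release channel Ryr1 was 30.7 kb from a summit, the fast calcium pump Atp2a1 40.5 kb, the calcium store protein Casq1 71.7 kb and the voltage sensor Cacna1s 87.5 kb. The peak nearest to Casq1, at Dcaf8, was the only nearest peak in the group with AANATGGC within 100 bp of its summit.

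The nearest summits of the 38 unbound genes were 31 distinct peaks, and 28 of these lay within 1000 bp of the start of another gene. This share is ordinary, since 84.8% of all 4681 peaks lay within 1000 bp of a start. The 3 genes whose nearest summit was at no start were Ckm, Cacna1s and Myom2. Over the whole group the median distance to a summit was 85.6 kb, against 93.7 kb for all protein-coding genes. The group had 1 gene between 1 and 10 kb from a summit (2.44%, against 3.75% of all), 20 between 10 and 100 kb (48.8%, against 28.8%) and 17 farther away (41.5%, against 48.7%).

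**Figure D4:**
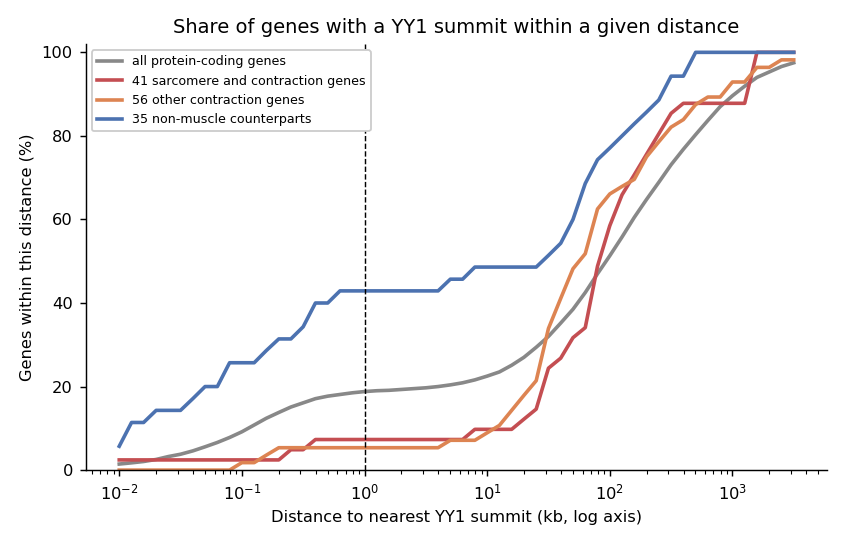
Share of genes (%) with a YY1 summit within a given distance (kb, log axis) of a transcript start, for all protein-coding genes, the 41 sarcomere and contraction genes, 56 other contraction genes and 35 non-muscle counterparts, with the dashed line at 1 kb. At the line the curves stand at 18.8%, 7.32%, 5.36% and 42.9%, and between 10 and 100 kb the curve of the 41 genes rises from below to above that of all genes.

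YY1 summits were rare inside the genes as well. One summit lay inside a member, the one at the start of Actn3, so that 2.44% of the group held a summit against 13.7% of all protein-coding genes. The bodies of the other 40 held none, including those of Ttn (279 kb), Neb (242 kb), Myom1 (124 kb) and Ryr1 (122 kb). The 41 genes together covered 1.72 Mb, or 0.581 summits per Mb, and all protein-coding genes had 3.07 summits per Mb. At that rate 1.72 Mb would hold 5.29 summits, but most summits lie at promoters, so this difference is not separate from the one at the starts.

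The letters of 6 promoters are shown next, those of Acta1, Ckm and Myh4 because YY1 is known to act on them, Actc1 beside the other sarcomeric actin, Myl2 because it held AANATGGC, and the proximal Mylpf start because the peak lay at the distal one. RefSeq promoters (GRCm38, 250 bases before to 50 after the start) were found for 34 of the 41 genes, as 40 promoters. The sequences below hold at most 30 bases of an annotated exon of the gene, so Actc1 stops short of the other promoters and Ckm, which has an upstream GENCODE start, stops before its RefSeq start. Capitals mark the YY1 motif AANATGGC, the TATA box letters TATAAA, the E box CAGCTG of the kind that MyoD binds, the CArG box bound by SRF and the MEF2 site, each on both strands. Acta1 is chr8:123894746-123895025 on the minus strand, Actc1 is chr2:114052858-114053125 on the minus strand, Myl2 is chr5:122092474-122092753 on the plus strand, Myh4 is chr11:67237562-67237841 on the plus strand, Ckm is chr7:19410844-19411054 on the plus strand, and the proximal start of Mylpf is chr7:127211358-127211637 on the plus strand.
Acta1: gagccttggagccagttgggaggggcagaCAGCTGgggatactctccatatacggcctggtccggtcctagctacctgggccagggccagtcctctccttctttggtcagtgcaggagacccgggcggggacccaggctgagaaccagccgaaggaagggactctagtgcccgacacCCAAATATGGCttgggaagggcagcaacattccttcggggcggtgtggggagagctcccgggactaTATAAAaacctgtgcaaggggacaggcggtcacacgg
Actc1: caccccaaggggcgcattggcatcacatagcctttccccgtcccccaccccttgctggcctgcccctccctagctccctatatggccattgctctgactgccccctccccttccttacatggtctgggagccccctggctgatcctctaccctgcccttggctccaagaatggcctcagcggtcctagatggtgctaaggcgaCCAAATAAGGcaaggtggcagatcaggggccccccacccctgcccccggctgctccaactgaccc
Myl2: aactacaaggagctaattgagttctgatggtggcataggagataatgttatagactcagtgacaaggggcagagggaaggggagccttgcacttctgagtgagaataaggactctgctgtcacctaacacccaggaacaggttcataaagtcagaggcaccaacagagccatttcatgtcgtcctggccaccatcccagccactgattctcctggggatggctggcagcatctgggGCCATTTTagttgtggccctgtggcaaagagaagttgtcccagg
Myh4: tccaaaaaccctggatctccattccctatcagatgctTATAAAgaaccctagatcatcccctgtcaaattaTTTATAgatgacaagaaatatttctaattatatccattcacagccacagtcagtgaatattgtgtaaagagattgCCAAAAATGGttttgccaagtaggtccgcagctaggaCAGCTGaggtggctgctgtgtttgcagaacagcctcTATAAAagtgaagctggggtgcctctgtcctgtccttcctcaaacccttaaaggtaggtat
Ckm: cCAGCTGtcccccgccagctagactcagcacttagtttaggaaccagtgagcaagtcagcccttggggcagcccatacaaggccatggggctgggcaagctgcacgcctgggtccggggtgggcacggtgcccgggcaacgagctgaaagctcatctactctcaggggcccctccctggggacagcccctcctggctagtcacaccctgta
Mylpf: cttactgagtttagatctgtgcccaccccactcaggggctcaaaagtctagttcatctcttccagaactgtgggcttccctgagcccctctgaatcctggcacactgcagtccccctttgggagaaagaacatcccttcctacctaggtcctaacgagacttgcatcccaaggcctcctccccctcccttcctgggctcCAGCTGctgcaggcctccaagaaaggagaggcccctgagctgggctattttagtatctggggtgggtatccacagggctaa
In Acta1 the letters AATATGGC began 70 bases upstream of the RefSeq start and shared 7 bases with a CArG box that began 73 bases upstream, so a YY1 motif and an SRF motif lay on top of each other. No peak was listed there, and the nearest summit was 54.6 kb away. In Actc1 a CArG box began 47 bases upstream without AANATGGC. Myl2 had AANATGGC on the opposite strand, 14 bases upstream of its upstream RefSeq start, and its nearest summit was 163 kb away. In Myh4 a TATA box, an E box and a CArG box began 31, 67 and 104 bases upstream.

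AANATGGC was found in 2 of the 34 genes with a RefSeq promoter, Acta1 and Myl2 (5.88%, against 7.46% of all protein-coding genes in that table), and its core ATGGC in 14 (41.2%, against 42.7%). The letters that YY1 recognises were therefore about as frequent as in other promoters. TATAAA was found in 11 genes (32.4%, against 14.8%): Acta1, Actc1, Myh1, Myh2, Myh3, Myh4, Myh6, Myh8, Myl1, Myl2 and Tnnt1. That of Actc1 lay downstream of the stretch printed above, and that of Myl2 also lay outside its printed stretch. CAGCTG was found in 15 (44.1%, against 17.4%), the CArG box in 6 (17.6%, against 1.76%) and the MEF2 site in 1, Ttn (2.94%, against 0.583%). The CArG boxes were in Acta1, Actc1, Ldb3, Myh4, Myl3 and Myom1. The 7 genes without an entry in the promoter table were Myom2, Tnni2, Tnnt3, Neb, Actn3, Tcap and Atp2a2, so 2 of the 3 bound genes were not searched. Over the wider 1000 bp on either side of any GENCODE start, 13 of the 41 genes had AANATGGC (31.7%, against 35.5% of all protein-coding genes), and 1 of these 13, Atp2a2, was bound, against 21.4% of all protein-coding genes with AANATGGC in that window.

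A list of 56 other sarcomere and contraction genes was counted in the same way, and 3 of them were bound (5.36%, against 18.8% of all protein-coding genes). These were Flnc, the muscle filamin at the Z-disc, with a fold enrichment of 5.11 and 13 fragments, Jph2, which joins the surface membrane to the calcium store, with 4.34 and 10 fragments, and the light chain gene Myl6b, with 4.34 and 10 fragments. Of these 56 genes 8 had CpG-rich promoters (14.3%), and 1 of the 8 was bound (12.5%, against 36.4%), as were 2 of the other 48 (4.17%, against 4.68%). Their median observed/expected CpG was 0.268.

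The non-muscle counterparts of the contraction genes, 35 genes for the cytoskeletal or widely made members of the same families, were counted next. Of these 15 were bound (42.9%, against 18.8% of all protein-coding genes), and 28 had CpG-rich promoters (80.0%), of which 13 were bound (46.4%, against 36.4%), while 2 of the other 7 were bound (28.6%, against 4.68%). These 2 were Capza2 and Unc45a, and both had a CpG-rich start in the basic set although the gene-level start was not CpG-rich. In Capza2 that basic start was 68 bp from the summit. The share of 28.6% thus depends on the start used for the class. The higher fold enrichments of this list included the calmodulin genes Calm3 (7.06) and Calm2 (6.39), the glycolytic gene Pgam1 (7.04) and non-muscle alpha-actinin Actn4 (5.79). Next came the light chains Myl12a and Myl12b (5.41, from 1 peak), cytoplasmic actin Actg1 (5.30), the actin-capping gene Capza2 (5.10) and Ampd2 (4.82). Capza2 and Ampd2 were below the median of 5.13 for all peaks within 1000 bp of a start. Myl12b has 2 gene records, and the 5.41 peak lay 19 bp from the start of 1 of them. The other record, with its start at 70990890, had a peak of its own (3.87, 11 fragments). Among the alpha-actinins, Actn4 had its summit 0 bp from a start with 22 fragments (13.8 to 33.3) and Actn3 had 11 (5.49 to 19.7), intervals that overlap, while Actn2 was 121 kb and non-muscle Actn1, with a CpG-rich promoter, 127 kb from a summit. Among the actins, Actg1 had a summit 181 bp from a start, whereas Acta1 and Actc1 had none, and neither had cytoplasmic Actb, whose nearest summit was 55.2 kb away. Non-muscle Myh9 had a summit 330 bp from a start with a fold enrichment of 2.69 and a q-value of 0.0701, and Myh10, at the far end of the summit-free stretch around the Myh cluster, was 161 kb from one.

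**Figure D5:**
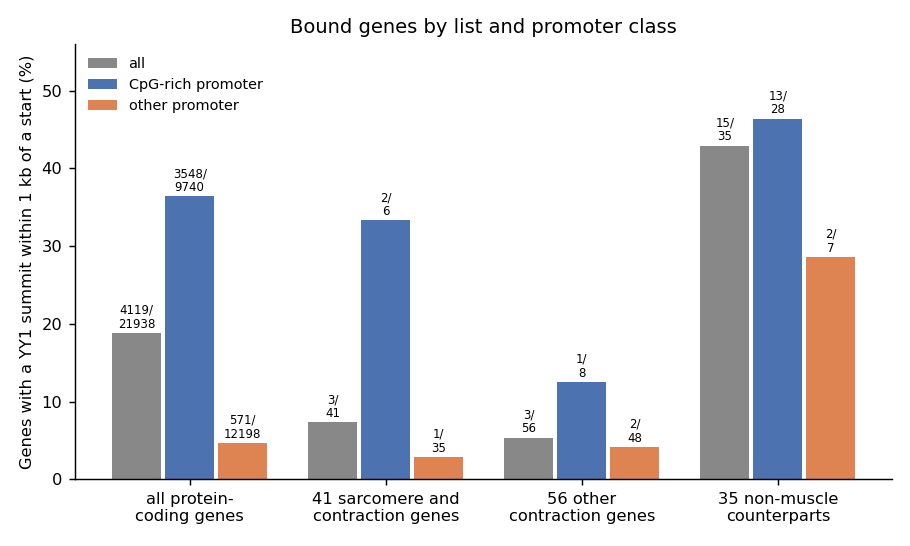
Share of genes (%) with a YY1 summit within 1 kb of a start, for all promoters, CpG-rich promoters and other promoters, in all protein-coding genes and the 3 lists, with the counts above the bars. The bars of the 41 genes stand at 7.32%, 33.3% and 2.86%, next to 18.8%, 36.4% and 4.68% for all protein-coding genes.

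The deposited list holds only peaks, with 8 to 394 fragments at the summit and a median of 14.0, and at the most frequent local background of 1.54 a summit needed at least 8 fragments to pass the authors' p-value limit of 0.0001. The fragments at promoters without a peak are not in the list, so an unbound gene is one at which no peak was called, and binding below that limit was not detectable at this depth. Repeated sequence was sampled as 32-base stretches every 100 bp within 1000 bp of the gene-level start. No such stretch occurred more than once in the genome at 28 of the 41 genes, and the highest share of repeated stretches was 20.0%, at Myom2. These stretches are shorter than the study's reads, and whether reads could be placed at these promoters was not tested.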

How the data were processed

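The data were 1 YY1 ChIP-seq peak list from MuSCs. Per the labels, the authors aligned reads to mm10 with Bowtie2 and called peaks with MACS2, and the study's methods give a p-value limit of 0.0001. No versions are given in the sources used here. The deposited list gives, per peak, its fold enrichment over local background (a ratio), −log10 p-value and q-value, a score and the summit offset. MACS2 adds 1 to the fragments and 1 to the background before taking this ratio, so it is lower than fragments divided by background. Fragments and local background at each summit were recovered from fold enrichment and p-value, since MACS2 computes both from these counts, with a largest misfit of 3.00e-04 in −log10 p. Exact Poisson intervals (95%) cover counting error only. Summits were placed against GENCODE M21 basic starts, with the gene-level start for CpG content, and motifs were searched on both strands of GRCm38. A gene symbol with 2 records was counted once, with the nearer summit. Python 3.11.15, numpy 2.4.6, pandas 2.3.3 and scipy 1.17.1 were used, and the functions were tested on simulated data. The members and lists were chosen with earlier results of these data known, so no test over the list was made and counts are set beside all protein-coding genes. Genes named are the bound members, members with a summit inside or within 5 kb, the 5 unbound members nearest to and the 5 farthest from a summit, and up to 10 bound genes of each other list, by fold enrichment, of which 1 is not reported here. The other members are named to account for all of them. Genes of the other lists set beside family members were picked after their values were seen.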

Additional observations from a re-analysis of the deposited data

How the results depend on the processing

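The count of bound members was 3, and it lay between 2 and 4 under 11 of the 12 alternatives of window, start site, annotation, q-value, overlap and assignment. It was 1, Mylpf, when only peaks enriched 5 fold or more were kept, where 11.1% of all protein-coding genes were bound. The count of genes with a summit inside, 1, became 2 when any base of a peak counted, since the Atp2a2 peak reaches into its gene, and 0 at that same enrichment limit. The median distance became 143 kb with that limit, against 188 kb over all protein-coding genes, and stayed between 82.2 and 85.6 kb otherwise. With a stricter observed/expected CpG of at least 0.75, 3 members were CpG-rich instead of 6, and 1 of the other 38 was bound. Using the first or any transcript start of the basic set, alternatives chosen after seeing the data, gave 5 and 6. Myom1 was in neither set, and Tpm3 was among the 6. The number of CpG-rich members bound was 2, or 3 with the gene-level start used for the call too. The count of member peaks with AANATGGC was 0 under both alternatives. No paired analysis was possible because a single YY1 immunoprecipitation was sequenced, and for the same reason no replicate could be left out.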
